A study of Mus musculus with 36 samples.

Results

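The mRNA levels of 10 genes that answer to the transcription factor NRF2 were followed in mouse embryonic fibroblasts (cultured connective tissue cells of the embryo) under 2 stresses: the haem oxygenase gene Hmox1, the thioredoxin pathway genes Txnrd1 and Srxn1, the glutathione genes Gclm, Gclc and Gsr, the quinone reductase gene Nqo1, the pentose phosphate gene G6pdx, the ferritin gene Fth1 and Osgin1. They were taken by name as textbook NRF2 targets, and the choice was made with earlier results of these data known. All 10 were found among the 49585 genes in each of the 36 tables of counts. All 10 had enough reads to enter both models described below, so no member was lost to the filter on low counts.

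NRF2, encoded by Nfe2l2, is held in the cytoplasm and sent for degradation by KEAP1, a sensor whose cysteines are modified by oxidants and electrophiles. When KEAP1 is modified, or bound by the autophagy receptor p62 (Sqstm1), NRF2 accumulates, pairs with a small MAF protein and binds antioxidant response elements, while BACH1 competes for the same sites and holds Hmox1 down in particular. The targets make and recycle glutathione and thioredoxin, supply NADPH, detoxify quinones, break down haem and store the iron set free.

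The cells differ in Tbk1, which encodes a kinase of antiviral signalling and selective autophagy and was changed by an N129D knock-in. There were 3 wild-type lines (WT: E1.5, E2.1, E2.7), 4 heterozygous lines (het: E1.3, E2.5, E2.6, E2.8) and 3 homozygous lines (hom: E1.4, E2.2, E2.9), and values per line are given in this order. Each line gave 3 libraries: one untreated, one after 4 h with the double-stranded RNA mimic poly(I:C), written pI:pC in the labels, and one after 4 h with antimycin and oligomycin together (AO). Antimycin inhibits complex III of the respiratory chain, and oligomycin inhibits the mitochondrial ATP synthase. Another 6 libraries hold WT line E1.5 grown at 2 densities, high and low, with 1 library for each treatment. Drug doses, strain, embryo age and passage were not given in the labels, and an untreated culture stands in for a vehicle control. Each line is 1 culture source, seen once per treatment, and N129D is carried in every cell of a het or hom line.

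Levels are given as CPM, read counts scaled to a common library total that was adjusted by the TMM method, with the SD over lines. Changes are log2 ratios ± SE from edgeR's quasi-likelihood test, fitted to the 30 libraries without a density label, and passing means a p below 0.05 after Benjamini-Hochberg adjustment over all 13364 genes tested. The libraries of 1 line share a source, so a second fit took the line as a replicate block. The block removes the constant differences between lines. Member calls that it changes are given beside the others, with values for the means over genotypes and by name within a genotype. For the lists of related genes it is given as counts.

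The 30 libraries held between 3689149 and 14879237 counts, the 3 high-density ones between 16474021 and 22756884, and the 3 low-density ones between 5391401 and 6307971. Fibroblast markers were abundant throughout, with 12 genes such as Col1a1 and Vim summing to between 8606 and 18872 CPM. Erythroid markers summed to at most 0.555 CPM. Other marker sums moved with the treatments: 6 endothelial genes summed to 4.03 to 22.58 CPM untreated, 5.875 to 27.82 CPM with poly(I:C) and 11.82 to 35.52 CPM with AO, where they were higher than untreated in 10 of 10 lines. Het line E2.6 gave the highest value of each range, and the other lines reached at most 11.95, 15.22 and 20 CPM. The sums of 6 chondrocyte genes were lower with AO in 10 of 10 lines (42.73 to 187.8 CPM, against 54.80 to 223.7 CPM untreated). Fibroblast sums also differed, at 11055 to 13905 CPM untreated, 13959 to 18872 CPM with poly(I:C) and 8606 to 13032 CPM with AO. Line E2.5 stood apart in 6 epithelial genes, with 68.32 to 88.56 CPM against at most 33.85 CPM in any other line. The part of these differences in the results below was not tested. The 15 macrophage markers summed to 154 to 257 CPM in the 3 libraries of hom line E2.9 and to 36.6 to 56.8 CPM in those of het line E2.6, against 3 to 10.9 CPM in the other 24 libraries. Among the defining macrophage genes, Adgre1 stood at 8.69 CPM and Lyz2 at 97.7 CPM in untreated E2.9, and Adgre1 was at 0 in 7 of the 10 untreated lines. Hom line E1.4 stood apart in several of the 10 genes. Its AO library had 4494836 counts, more than the AO library of hom line E2.2 (3689149). Results that rest on these 3 lines are given with and without them. In bulk RNA, a change in the share of cells that express a gene and a change of its level per cell cannot be told apart.

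Promoters from the RefSeq gene models (GRCm38.p6) were available for 7 of the 10 genes and were searched for the antioxidant response element. Those with its core are shown here, because they hold the letters NRF2 is known to bind. The window ran from 250 bases before to 50 bases after the start. The core searched was TGACNNNGC, and the form TGAGNNNGC was searched as well, on both strands. Matches of either form are in capitals, and those on the other strand are printed as their reverse complement.
Srxn1, chr2:152105274-152105573, + strand: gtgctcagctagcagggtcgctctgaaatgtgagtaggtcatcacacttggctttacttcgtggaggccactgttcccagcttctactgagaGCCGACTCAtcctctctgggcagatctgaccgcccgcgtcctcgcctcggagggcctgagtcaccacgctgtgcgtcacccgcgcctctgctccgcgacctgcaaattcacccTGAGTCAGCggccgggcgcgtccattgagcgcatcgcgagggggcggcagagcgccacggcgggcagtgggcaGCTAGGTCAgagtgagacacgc
Gclm, chr3:122245307-122245606, + strand: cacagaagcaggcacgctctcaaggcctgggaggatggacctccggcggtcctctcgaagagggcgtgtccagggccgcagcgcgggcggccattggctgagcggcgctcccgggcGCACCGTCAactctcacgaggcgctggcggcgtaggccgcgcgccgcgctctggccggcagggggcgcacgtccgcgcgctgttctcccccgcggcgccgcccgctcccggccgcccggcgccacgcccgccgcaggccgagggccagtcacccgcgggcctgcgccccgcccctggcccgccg
Txnrd1, chr10:82858956-82859255, + strand: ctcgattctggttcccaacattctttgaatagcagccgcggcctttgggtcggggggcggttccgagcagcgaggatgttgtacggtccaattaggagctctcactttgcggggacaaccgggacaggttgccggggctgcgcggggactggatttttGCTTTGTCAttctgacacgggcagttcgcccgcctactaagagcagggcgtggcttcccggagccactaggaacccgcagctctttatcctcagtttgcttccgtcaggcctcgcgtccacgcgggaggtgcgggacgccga
G6pdx, chrX:74428831-74429130, - strand: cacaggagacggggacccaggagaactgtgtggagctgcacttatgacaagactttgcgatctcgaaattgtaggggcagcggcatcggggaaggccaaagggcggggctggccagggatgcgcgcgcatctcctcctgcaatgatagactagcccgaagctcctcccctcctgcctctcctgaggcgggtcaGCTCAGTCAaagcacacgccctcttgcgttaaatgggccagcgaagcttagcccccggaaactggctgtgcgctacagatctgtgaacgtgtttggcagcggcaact

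A total of 7 of the 10 genes had an entry among these promoters, namely Srxn1, Gclm, Nqo1, Osgin1, Txnrd1, Fth1 and G6pdx. Hmox1, Gclc and Gsr had none, so their promoters were not searched. Txnrd1 and Fth1 have more than 1 annotated start, so the 7 genes with an entry have 10 promoter windows. The core TGACNNNGC occurred in 4 of the 10 windows (the 4 printed) and in 12.4% of all 32851 promoters of that length. The form TGAGNNNGC occurred in 2 of the 10 windows, those of Srxn1 and Osgin1, and in 17.6% of all promoters. Srxn1 held 3 matches, and 1 of them, TGAGTCAGC, overlaps an AP-1 motif of the form TGANTCA, which 7.81% of promoters hold. The match in Osgin1 overlaps that motif as well. Txnrd1 has 3 annotated starts in the table and only the one shown held a match. No match was found for Nqo1 or Fth1, which says only that these letters are not in this window. The E-box CACGTG, in 7.15% of all promoters, was in none of the windows of these 7 genes. Both a gene that rose with AO (Txnrd1) and one that fell (G6pdx) held the core.

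On the GRCm38 assembly, Hmox1 lies at chr8:75093621-75100589, Nqo1 at chr8:107388225-107403206, Osgin1 at chr8:119434124-119446256 and Gsr at chr8:33652523-33698163. Txnrd1 lies at chr10:82833951-82897712, Gclm at chr3:122245557-122270732, Gclc at chr9:77754535-77794485 and Srxn1 at chr2:152105516-152111376. G6pdx lies at chrX:74409483-74429194 and Fth1 at chr19:9980598-9985098. Values are sums over whole genes, so no exon or UTR is resolved. Gclm shares 4.71% of its exon bases with the opposite-strand transcript Gm17494 and 3.88% with the same-strand pseudogene Gm6061, and G6pdx shares 13.6% with the opposite-strand gene Ikbkg. The library kit was a stranded one, but no label gives the strand setting of the counting, so reads of these stretches may be shared. Counts were not whole, a sign of reads shared out between genes, in 10 of 36 libraries for Gclm, 6 for G6pdx and 2 for Fth1, and in none for the other members.

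**Figure D1:**
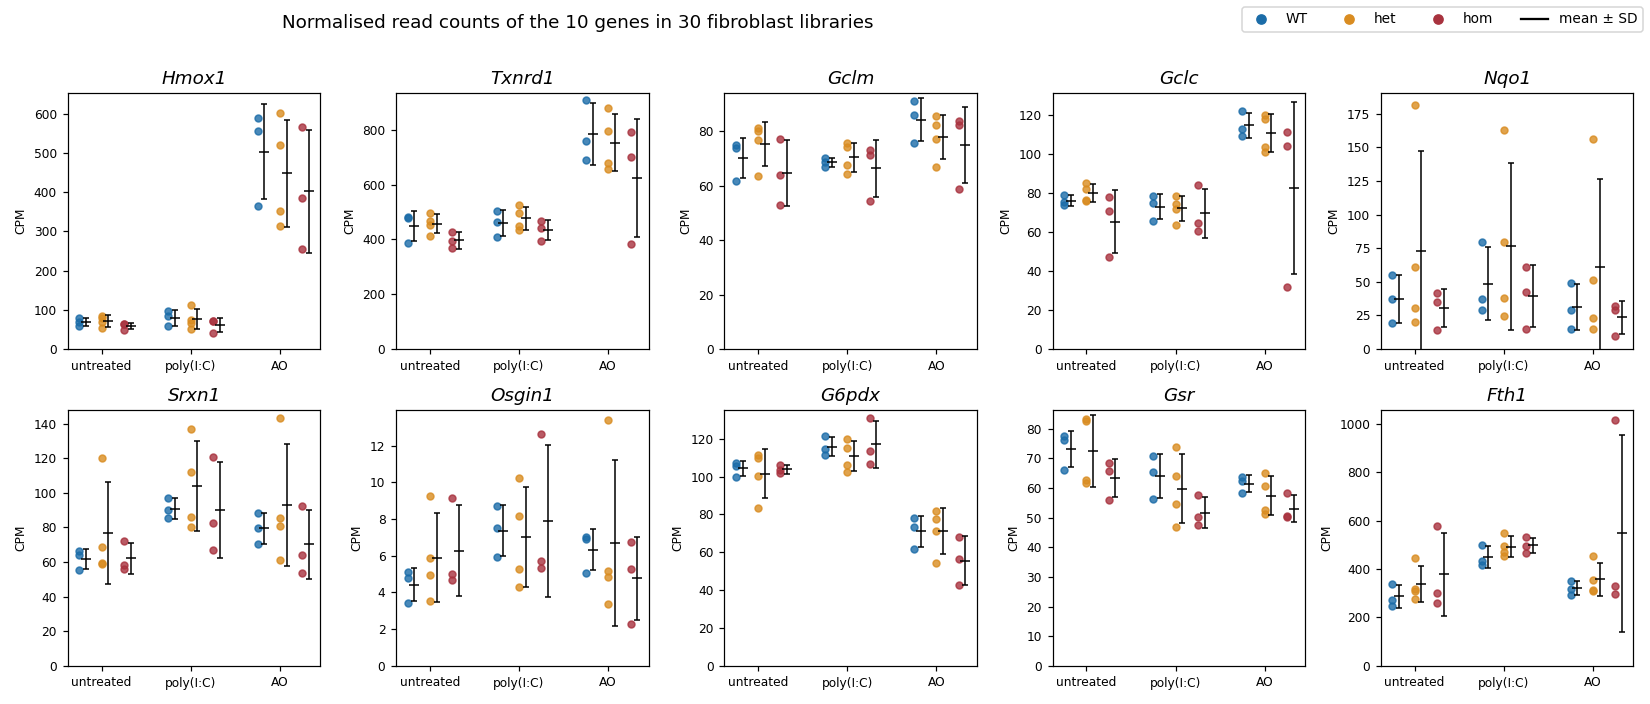
Each panel plots 1 gene in CPM (linear axis from 0) for 30 libraries in 9 groups, with points for lines, coloured by genotype, and bars for the mean ± SD over the 3 or 4 lines of a group. Hmox1 under AO sits between 255 and 602 CPM in all 10 lines, above every untreated and poly(I:C) library, which reach at most 112 CPM.

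Inhibition of the respiratory chain asks how this gene set responds to mitochondrial stress, and members moved in both directions. Averaged over the genotypes, AO raised Hmox1 6.76-fold, Txnrd1 1.66-fold and Gclc 1.38-fold, and lowered G6pdx to 0.635 and Gsr to 0.823 of the untreated level. The other 5 genes, Gclm, Nqo1, Srxn1, Osgin1 and Fth1, did not pass. Thus 5 of 10 members passed, against 33.7% of all genes tested. In the blocked fit 8 of 10 passed, against 49.7% of all genes: Gclm and Srxn1 joined the genes that rose and Nqo1 joined those that fell. The median log2 change was 0.22 for the 10 members and -0.02 for all genes. The members were chosen with earlier results known, and these counts and medians are not read as a result about the set.

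Hmox1 encodes the inducible enzyme that opens haem to biliverdin, carbon monoxide and iron. In WT lines it stood at 59.9, 79.1 and 68.0 CPM untreated and at 365, 588 and 556 CPM under AO. In het lines it went from 52.9, 79.5, 85.4 and 68.6 CPM to 314, 521, 353 and 602 CPM. In hom lines it went from 49.9, 64.1 and 63.7 CPM to 255, 566 and 384 CPM. The treated and untreated ranges were far apart in every genotype, although the treated lines spread more widely than the untreated ones. The log2 change was 2.87 ± 0.33 in WT (edgeR adjusted p = 3.39e-05), 2.64 ± 0.28 in het (3.54e-06) and 2.76 ± 0.32 in hom (9.99e-06), with a mean of 2.76 ± 0.18 (1.93e-10). Within a line the rise ran from 4.14-fold in E2.6 to 8.83-fold in E2.2. Leaving out lines E1.4, E2.6 and E2.9 together, a choice made after seeing the data, gave a mean of 2.94 (edgeR adjusted p = 6.67e-07).

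Txnrd1 encodes the cytosolic selenoenzyme that reduces thioredoxin with NADPH. It stood at 479, 480.0 and 387 CPM in untreated WT lines and at 688, 907 and 757 CPM under AO. The het lines went from 468, 453, 496 and 413 CPM to 658, 879, 679 and 794 CPM. The hom lines went from 367, 426 and 395 CPM to 382, 792 and 699 CPM. Line E1.4 was the exception, at 1.04 times its untreated level, while the other 9 lines stood at 1.37 to 1.96 times theirs. The mean log2 change was 0.73 ± 0.10 (edgeR adjusted p = 3.55e-06), and it was 0.78 without E1.4. Txnrd1 passed in each genotype (WT 0.80 ± 0.18, het 0.72 ± 0.15, hom 0.66 ± 0.18). The call was lost in WT without E2.1 or E2.7, in het without E2.8 and in hom without E2.2 or E2.9, with a highest adjusted p of 0.119 in WT, 0.0549 in het and 0.174 in hom from edgeR.

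Srxn1 encodes sulfiredoxin, which restores over-oxidised peroxiredoxins. It ranged over the 10 lines from 55.1 to 120.4 CPM untreated and from 53.8 to 143 CPM under AO, so the ranges overlap almost fully. Within a line it was higher in 9 of 10 and lower in E1.4. The mean log2 change of 0.27 ± 0.16 did not pass (edgeR adjusted p = 0.205), whereas with the line as a block it was 0.25 ± 0.07 and passed (0.00364).

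Of the genes for glutathione, Gclc encodes the catalytic and Gclm the modifier subunit of the enzyme that joins glutamate to cysteine, the limiting step of glutathione synthesis. Gclc stood at 75.4, 79.2 and 74.1 CPM in untreated WT lines and at 109, 122 and 113 CPM under AO. The het lines went from 76.2, 76.3, 85.5 and 82.4 CPM to 101.2, 104, 118 and 120.2 CPM, and hom lines E2.2 and E2.9 from 70.9 and 78.2 CPM to 105 and 112 CPM. Hom line E1.4 went the other way, from 47.3 to 32.1 CPM. Its 2 values are the lowest of their treatments. The mean log2 change was 0.47 ± 0.14 (edgeR adjusted p = 0.0115), it was 0.52 (6.15e-07) without E1.4, and it missed the threshold without hom line E2.2 (0.0532). Gclm was called with all lines only in the block: 0.18 ± 0.08 (edgeR adjusted p = 0.104) against 0.16 ± 0.04 with the line as a block (0.00472). Its level ranged from 53.1 to 81.3 CPM untreated and from 59.02 to 91.1 CPM under AO, higher in 9 of 10 lines. Without E1.4 Gclm passed, narrowly, in the fit with no block (0.17, edgeR adjusted p = 0.0456).

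Gsr, whose product reduces oxidised glutathione with NADPH, fell while Gclc rose. It ranged from 56.0 to 83.4 CPM untreated, with a median of 67.4 CPM, and from 50.2 to 64.9 CPM under AO, and was lower in 10 of 10 lines. The mean log2 change was -0.28 ± 0.08 (edgeR adjusted p = 0.0104), or -0.29 ± 0.05 (4.18e-05) with the line as a block.

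G6pdx encodes glucose-6-phosphate dehydrogenase, the entry enzyme of the pentose phosphate pathway and a main source of the NADPH that thioredoxin and glutathione reductases use. It stood at 106, 107 and 99.9 CPM in untreated WT lines and at 77.9, 73.6 and 62.0 CPM under AO. The het lines fell from 110.1, 100.6, 112 and 83.6 CPM to 71.5, 82.0, 77.7 and 54.1 CPM, and the hom lines from 106, 104 and 102 CPM to 42.6, 68.0 and 56.4 CPM. The treated and untreated ranges did not overlap: the highest treated line (82.0 CPM) lay below the lowest untreated one (83.6 CPM). The log2 change was -0.55 ± 0.15 in WT (edgeR adjusted p = 0.0216), -0.51 ± 0.13 in het (0.0101) and -0.90 ± 0.15 in hom (0.000309), with a mean of -0.65 ± 0.08 (1.19e-06). In WT the call was lost when any 1 of the 3 lines was left out (edgeR adjusted p from 0.106 to 0.183), with values from -0.62 to -0.52, and in het it was lost without E1.3 (0.0889). In hom it was kept on leaving out any 1 line, with values from -1.09 to -0.74. The fall was deepest in E1.4, to 0.400 of its untreated level, against 0.657 in E2.2 and 0.553 in E2.9. The AO response of G6pdx in hom differed from that in WT by -0.35 and did not pass. G6pdx is X-linked, and the untreated levels overlapped between the 5 lines with Xist above the Y-linked gene Ddx3y (99.9 to 110.1 CPM) and the 5 with the reverse (83.6 to 112 CPM).

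Nqo1, whose product reduces quinones by 2 electrons at once, was lower under AO in 10 of 10 lines, by factors of 0.668 to 0.892. The lines themselves lay far apart (14.5 to 181 CPM untreated, 9.71 to 156 CPM under AO), and the fit without a block gave -0.29 ± 0.47 (edgeR adjusted p = 0.684). With the line as a block the change was -0.35 ± 0.08 (0.000923). Fth1, the heavy chain of the ferritin shell that stores iron, was within 0.9998 to 1.17 times its untreated level in 9 lines and at 1.76 times in E1.4. Its mean log2 change of 0.26 ± 0.18 did not pass (edgeR adjusted p = 0.281), with or without the block, and was 0.13 without E1.4. Osgin1, an oxidative stress-induced growth inhibitor, was the scarcest of the 10 at 3.42 to 9.24 CPM untreated, from 22 to 74 counts a library. It was higher in 5 lines and lower in 5, with a mean of 0.10 ± 0.26 (edgeR adjusted p = 0.816).

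**Figure D2:**
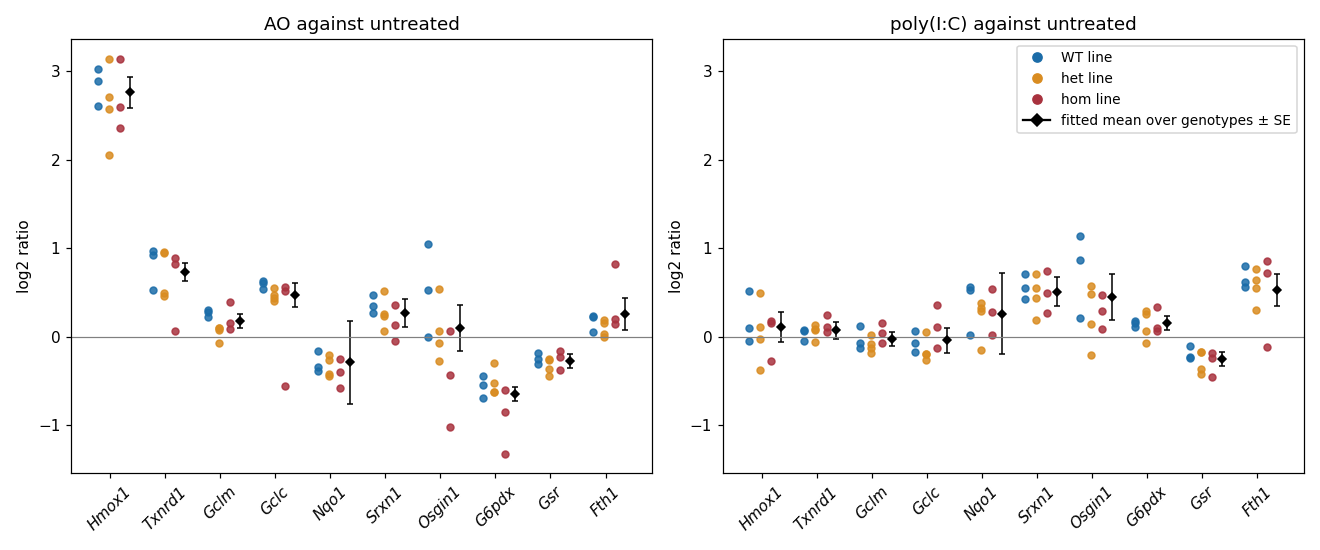
Log2 ratio of CPM within each line for AO (left) and poly(I:C) (right) over untreated, 1 point per line coloured by genotype, with the fitted mean over genotypes ± SE as a diamond. Hmox1 is raised in all 10 lines by AO only, while under poly(I:C) Srxn1 is higher than under AO in 7 lines and Fth1 in 9.

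Genotype by genotype, the same 3 members (Hmox1, Txnrd1 and G6pdx) passed under AO in WT, het and hom, where 7.66%, 11.1% and 13.1% of all genes passed. In the blocked fit 7, 6 and 5 members passed, against 22.2%, 27% and 28.7% of all genes. Gclc, Gclm, Srxn1 and Gsr were the additions in WT, Gclc, Nqo1 and Gsr in het, and Nqo1 and Gsr in hom. Leaving out 1 hom line at a time, 2 to 4 members passed in hom: without E1.4 Gclc was added (0.52, edgeR adjusted p = 0.00682, against 0.34 with all 3 lines), and without E2.2 or without E2.9 Txnrd1 did not pass. When the hom AO and untreated groups were fitted alone, no member passed and 3 genes in all did. Hmox1 then changed by 2.77 (edgeR adjusted p = 0.0532).

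Levels were also divided by the joined length of all annotated exons of a gene. Fth1 and Txnrd1 were then the highest in untreated WT cells, at 82.6 ± 13.4 and 63.3 ± 7.52 CPM per kb (SD, n = 3). That length was 3469 bp for Fth1, 7086 bp for Txnrd1 and 1751 bp for Hmox1, and the transcripts expressed may be shorter. The order between genes rests on these lengths, and other lengths were not tested. Hmox1 followed at 39.4 ± 5.496, G6pdx at 33.9 ± 1.26, Gsr at 26.6 ± 2.22, Nqo1 at 23.98 ± 11.5, Srxn1 at 21.9 ± 2.08, Gclc at 20.2 ± 0.705, Gclm at 11.2 ± 1.19 and Osgin1 at 1.66 ± 0.331 CPM per kb. In this order the ranges of mean ± SD did not overlap between Txnrd1 and Hmox1, G6pdx and Gsr, Gclc and Gclm, or Gclm and Osgin1, and they overlapped between all other neighbours. On this scale Hmox1 became the highest of the 10 under AO, at 287 ± 69.0 CPM per kb. Txnrd1 stood at 111 ± 15.8 and Fth1 at 92.4 ± 8.67, and this order may differ with the lengths of the transcripts expressed.

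Of 11 regulators of the pathway tested, 8 rose and 1 fell under AO in the mean over genotypes, 9 in all, where 33.7% of all genes passed (2270 higher and 2233 lower). In the blocked fit 9 rose and 1 fell, against 49.7% of all genes. The list was chosen with earlier results of these data known. It is described by these counts and was not tested as a list. Nfe2l2, the gene for NRF2 itself, rose by 0.66 ± 0.09 (edgeR adjusted p = 6.31e-06), from a median of 123 CPM (101.1 to 145) to 199 CPM (143 to 235). The small MAF partners rose as well, Mafg by 1.18 ± 0.08, Maff by 1.89 ± 0.17 and Mafk by 1.09 ± 0.18, and Sqstm1 rose by 1.41 ± 0.10 from a median of 376 to 1005 CPM. Keap1, the inhibitor, fell by 0.39 on the log2 scale (SE 0.10, edgeR adjusted p = 0.00434), while the repressor Bach1 rose by 0.29 ± 0.07 and the KEAP1-bound ligase scaffold Cul3 by 0.44 ± 0.07. The median log2 change of the 11 was 0.44, against -0.02 over all genes.

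Of 30 other genes linked to NRF2, 2 rose (the cystine importer gene Slc7a11 by 1.37 ± 0.25 and the glycine transporter gene Slc6a9 by 0.93 ± 0.31) and 8 fell. Those that fell were Aox1, Cbr3, Idh1, Gstm1, Akr1b8, Ugdh, Cat and Pgd, with Cat (catalase) at -0.35 ± 0.06 and Idh1 at -0.69 ± 0.13. These 10 of 30 lie at the background of 33.7%. With the line as a block the counts were 6 higher and 12 lower, 18 in all, against 49.7% of all genes. Among 28 genes of glutathione, thioredoxin and peroxide handling 3 rose and 3 fell, Slc7a11 and Cat again among them (5 and 5 in the block), so that 6 of 28 passed, a smaller share than the background of 33.7%. Txnip, whose product binds and inhibits thioredoxin, fell by 2.59 on the log2 scale (SE 0.25, edgeR adjusted p = 2.33e-08), from a median of 60.2 to 10.3 CPM, and Glrx, a glutaredoxin gene, fell by 1.11 (SE 0.13).

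Beside G6pdx, 13 genes of the pentose phosphate pathway and NADPH supply gave 3 higher and 4 lower (4 and 5 in the block), Idh1 again among them, against the same 33.7% of all genes (49.7% in the block). Pgd, the next NADPH-producing enzyme after G6pdx, changed by -0.33 ± 0.06 (edgeR adjusted p = 0.000163) and H6pd, the endoplasmic reticulum counterpart of G6pdx, by -0.77 ± 0.11, whereas Mthfd2, a mitochondrial folate enzyme, rose by 1.07 ± 0.14. Of 17 genes of haem and iron handling 6 rose and 1 fell (7 and 2 in the block), near the backgrounds of 33.7% and 49.7%, and these counts are not read as a result about the list. Flvcr2, a transporter gene related to the haem exporter gene Flvcr1, rose by 1.92 ± 0.22 from a median of 2.18 to 7.84 CPM, and Slc39a14, Slc11a2 and Tfrc, which encode importers of iron, rose by 0.44 ± 0.12, 0.33 ± 0.09 and 0.32 ± 0.09. The constitutive haem oxygenase gene Hmox2 changed by -0.23 ± 0.10 and did not pass (edgeR adjusted p = 0.0685). Ftl1, the ferritin light chain gene, changed by 0.34 ± 0.14 (0.0668).

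**Figure D3:**
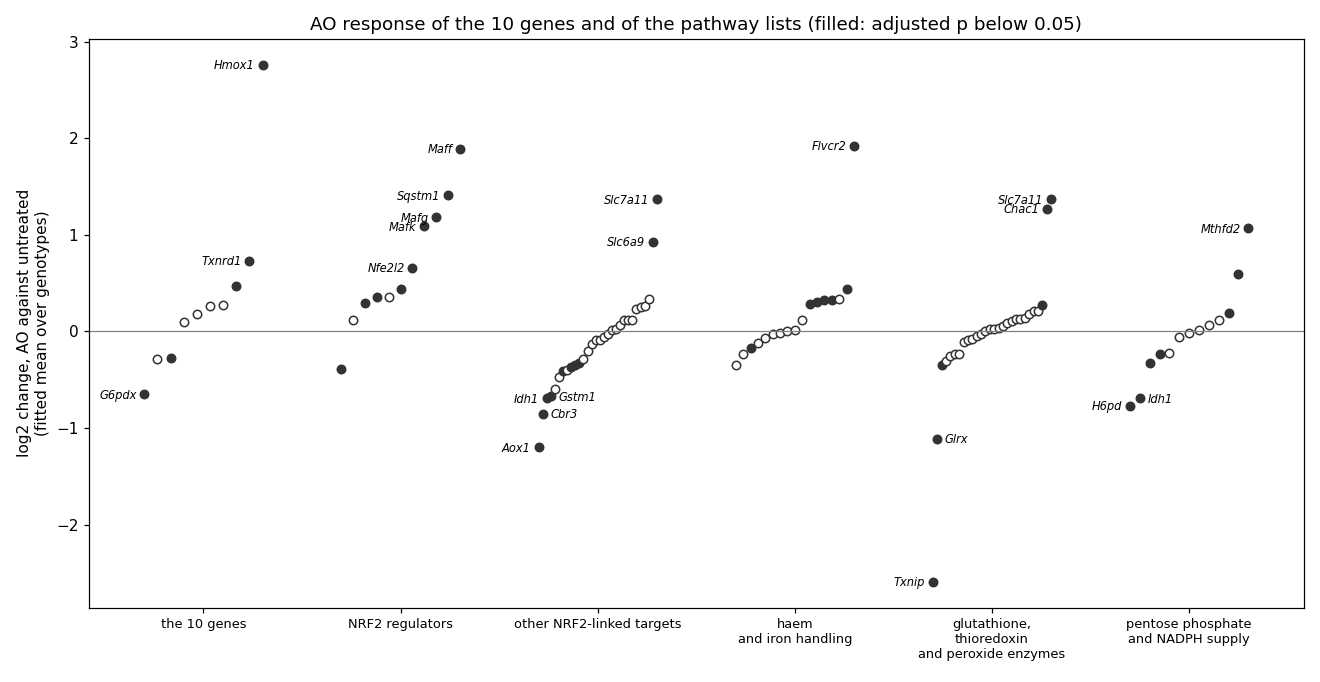
Fitted log2 change under AO (mean over genotypes) of the 10 genes and of 5 lists of related genes, 1 circle per gene, filled where the adjusted p was below 0.05. Of the 11 regulators 8 passed above 0 and 1 below, while the other NRF2-linked targets run from Aox1 at -1.20 to Slc7a11 at 1.37.

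Poly(I:C) asks whether antiviral stimulation touches the same genes. In the mean over genotypes it raised Srxn1 1.42-fold and Fth1 1.45-fold and lowered Gsr to 0.839 of the untreated level, so 3 of 10 members passed, against 21.7% of all genes. Hmox1 did not pass, at 0.11 ± 0.17 (edgeR adjusted p = 0.714), with 41.2 to 112 CPM over the 10 lines and a higher value in 6 of 10. The blocked fit called 5 members, against 38.7% of all genes: Nqo1 (0.29 ± 0.08) and Osgin1 (0.42 ± 0.14) were added to the genes that rose. These shares lie near the backgrounds and are not read as a result about the set.

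Srxn1 stood at 90.0, 85.4 and 97.2 CPM in WT lines under poly(I:C), against 55.1, 63.8 and 66.3 CPM untreated. The het lines reached 86.0, 80.3, 137 and 112 CPM and the hom lines reached 67.2, 82.5 and 121 CPM. It was higher in 10 of 10 lines, by 1.14 to 1.67 times. The mean log2 change was 0.51 ± 0.16 (edgeR adjusted p = 0.0236). Fth1 stood at 434, 416 and 499.7 CPM in the WT lines, against 249, 272 and 338 CPM untreated, and was higher in 9 of 10 lines. The exception was E1.4, which went from 576 to 531 CPM. Fth1 changed by 0.53 ± 0.18 (edgeR adjusted p = 0.0328), and by 0.65 (3.14e-05) without E1.4. Gsr was lower in 10 of 10 lines and changed by -0.25 ± 0.08 (edgeR adjusted p = 0.0309).

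These 3 calls depend on which lines are in the fit. Of the 10 fits that left out 1 line each, 4 kept Srxn1 past the threshold, 4 kept Gsr and 2 kept Fth1, with highest adjusted p-values of 0.0784, 0.087 and 0.0971. Directions did not change. No member passed without WT line E1.5, E2.1 or E2.7 or without hom line E2.9. In the block the 3 genes passed with adjusted p-values of 6.15e-06, 0.000242 and 0.000122.

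Within a genotype no member passed under poly(I:C), where 3.2%, 4.67% and 1.28% of all genes passed in WT, het and hom. At an unadjusted p below 0.05 there were 2231, 2368 and 1599 genes in all. The block gave 2, 3 and 2 members, against 15.1%, 17.3% and 9.55% of all genes. They were Srxn1 and Fth1 in WT, those 2 and Gsr in het, and Srxn1 and Gsr in hom. Without line E1.4, Fth1 passed in hom in the fit with no block (0.78, edgeR adjusted p = 0.0297).

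Of the 11 regulators, 3 rose under poly(I:C): Mafk by 0.83 ± 0.18, Maff by 0.50 ± 0.17 and Sqstm1 by 0.37 ± 0.10. Nfe2l2 changed by 0.14 ± 0.09 (edgeR adjusted p = 0.32) and Mafg by -0.21 ± 0.08 (0.0631). Of the other 30 linked targets, Pgd (0.40 ± 0.06) and Tkt (0.36 ± 0.09), both of the pentose phosphate pathway, rose and none fell. Txnip rose by 1.13 ± 0.22, where AO had lowered it, and so did Sod2 (0.46 ± 0.12), the mitochondrial superoxide dismutase gene. Of the haem and iron genes, Aco1 rose (0.30 ± 0.05) and Ireb2 fell (-0.37 ± 0.10), which encode the 2 iron regulatory proteins. In the block the counts higher and lower were 5 and 2 for the regulators, 6 and 1 for the other linked targets, 7 and 1 for the glutathione and thioredoxin genes, 5 and 3 for haem and iron and 5 and 0 for pentose phosphate and NADPH. The backgrounds are the 21.7% and, in the block, 38.7% of all genes given above, and nothing is read from these counts about a list.

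The stresses were compared directly over all lines. AO exceeded poly(I:C) in Hmox1 (2.64 ± 0.18), Txnrd1 (0.65 ± 0.10), Gclc (0.51 ± 0.14) and Gclm (0.21 ± 0.08), and lay below it in G6pdx (-0.80 ± 0.08). These 5 of 10 passed, against 41.4% of all genes, a count that is not read as a result about the set. In the block 9 of 10 passed, against 55.9%, adding Srxn1 (-0.26 ± 0.07), Fth1 (-0.37 ± 0.10), Osgin1 (-0.37 ± 0.14) and Nqo1 (-0.64 ± 0.08), all lower under AO than under poly(I:C). Gsr was the exception, at -0.03 ± 0.05 (edgeR adjusted p = 0.65). Gclm had the weakest of the 5 calls without a block (edgeR adjusted p = 0.0457), and it was lost on leaving out any 1 line other than E1.4. Without E1.4, Fth1 passed as well with no block (-0.53, edgeR adjusted p = 0.000112). Both treatments come from the same lines.

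The allele series asks whether TBK1 N129D alters these genes at rest or under stress. No member passed in hom against WT, where the share of genes passing was 0.015% untreated, 0.254% with poly(I:C) and 0% with AO. No member passed in het against WT either, where 0% passed under each treatment. At an unadjusted p below 0.05, edgeR gave 417, 556 and 1446 genes for hom and 90, 140 and 64 for het. If no gene differed, a share of about 0.05 of the 13364 genes tested would lie there. Only the 1446 of hom under AO exceeded that share, and these counts are not read as an effect of genotype. Under AO, Hmox1 stood at 503 ± 121 CPM in WT (n = 3), 448 ± 137 in het (n = 4) and 402 ± 156 in hom (n = 3), with ranges that overlapped. The log2 difference of hom from WT was -0.22 ± 0.31 untreated and -0.32 ± 0.30 under AO (edgeR adjusted p = 0.976 and 0.7). These errors do not show that the genotypes act alike.

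The largest hom against WT differences under AO were in Fth1 (0.77 ± 0.32, edgeR adjusted p = 0.421), Gclc (-0.47 ± 0.25) and Osgin1 (-0.43 ± 0.48), and the first 2 moved with line E1.4: without it Fth1 differed by -0.04 and Gclc by -0.09. In that group Fth1 stood at 1014 CPM in E1.4 and at 295 and 331 CPM in E2.2 and E2.9, against 291 to 351 CPM in WT. The differences of the AO response from WT were -0.10 ± 0.43 in hom and -0.22 ± 0.40 in het for Hmox1. Of all members Osgin1 had the largest such difference, -0.94 ± 0.68 in hom. No member and 0% of all genes passed in any of the 4 differences of response (AO or poly(I:C), hom or het from WT), with or without the block. At an unadjusted p below 0.05 they held 125, 33, 156 and 74 genes without the block and 475, 145, 783 and 257 with it, in the order AO hom, AO het, poly(I:C) hom and poly(I:C) het. Only the 783 exceeded a share of 0.05 of the genes tested. None of the 5 lists of related genes had a member past the threshold in any genotype comparison.

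**Figure D4:**
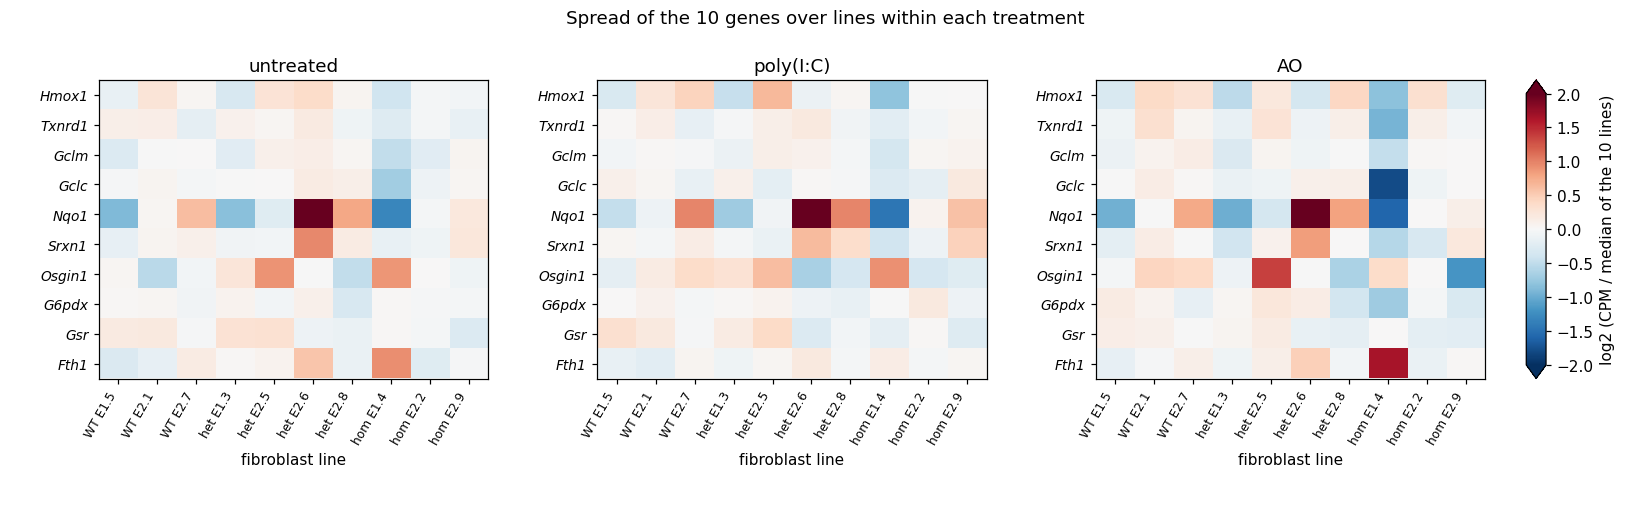
Log2 of each line's CPM over the median of the 10 lines, per gene and treatment, on a scale cut at ± 2. Nqo1 is high in E2.6 and low in E1.3, E1.4 and E1.5 in every treatment, and E1.4 is low in Gclc and high in Fth1 under AO.

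The spread between lines was narrow in some of the genes and wide in others. In untreated cells the ratio of the highest line to the lowest was 1.34 for G6pdx, 1.35 for Txnrd1 and 1.71 for Hmox1, but 2.19 for Srxn1, 2.31 for Fth1, 2.704 for Osgin1 and 12.5 for Nqo1. Nqo1 was lowest in E1.4, E1.5 and E1.3 (14.5, 19.5 and 20.2 CPM), the 3 lines whose names begin with E1, and was 30.5 to 181 CPM in the lines whose names begin with E2. The order held in the other treatments: the E1 lines had 14.7 to 28.9 CPM under poly(I:C) and 9.71 to 14.96 CPM under AO, and the E2 lines 37.5 to 163 and 22.77 to 156 CPM. The labels do not say what E1 and E2 stand for. Each group of 3 or 4 lines held 1 E1 line.

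Het line E2.6 had the highest Nqo1 and Srxn1 in all 3 treatments (Nqo1 181, 163 and 156 CPM, and Srxn1 120.4, 137 and 143 CPM, untreated, with poly(I:C) and with AO). The same line had S100a4, a fibroblast and macrophage gene, at 538 CPM against 26.1 to 129.5 CPM in the other untreated lines, and macrophage markers above those of every line but E2.9. Its endothelial sums were the highest of the 10 lines in all 3 treatments, and its chondrocyte sums the highest untreated and with AO. Line E2.9, with more macrophage transcripts, had Nqo1 at 41.8 CPM and Srxn1 at 72.4 CPM untreated. The part of other cells in the levels of E2.6 was not tested. Hom line E1.4 had the lowest level of the 10 lines in Hmox1, Txnrd1, Gclm, Gclc and Nqo1 under each of the 3 treatments, and the highest Fth1 untreated and under AO. Its macrophage markers summed to 3.52 to 8.47 CPM, within the range of the other lines. Its sums over 6 neural genes such as Sox10 and Tubb3 were the highest of the 10 lines, at 201.2 CPM untreated, 228.9 CPM with poly(I:C) and 83.93 CPM with AO, against at most 125.5, 154.7 and 77.54 CPM elsewhere. Their part in the levels of E1.4 was not tested.

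Without E1.4, E2.6 and E2.9, leaving 7 lines, 6 members passed under AO in the mean over genotypes: the 5 above and Gclm (0.24, edgeR adjusted p = 0.0437). Under poly(I:C) 2 passed, Srxn1 (0.53, 0.00158) and Fth1 (0.71, 2.78e-05), and Gsr did not (-0.21, 0.14). The hom group is then line E2.2 alone, whose spread is taken from the other groups. There Hmox1 (3.13, 0.00469) and Txnrd1 (0.88, 0.0294) passed and G6pdx did not (-0.62, edgeR adjusted p = 0.161).

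High and low cell density were compared in WT line E1.5, with 1 library per density and treatment, in a model of treatment and density over 9 libraries and 12491 genes. The treatments serve there as repeats of the density contrast, and all libraries come from 1 line. At high density Hmox1 was higher by 0.29 ± 0.08 (edgeR adjusted p = 0.0343), Srxn1 by 0.34 ± 0.09 (0.0195) and Osgin1 by 1.02 ± 0.29 (0.0307). These 3 of 10 passed, against 16.8% of all genes, a count that is not read as a result about the set. The high-density libraries are also the deeper ones, so density and depth cannot be told apart.

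The density difference in Hmox1 lay mainly in the AO library. Hmox1 stood at 66.7 CPM at low and 68.7 CPM at high density untreated, at 57.4 and 68.3 CPM with poly(I:C), and at 302 and 432 CPM with AO. Osgin1 stood at 3.14 and 3.84 CPM untreated, at 3.03 and 5.79 CPM with poly(I:C), and at 1.61 and 6.58 CPM with AO, so it was higher at high density in each. The widest of these gaps, with AO, rests on few reads of Osgin1 at low density, in a library of 5636268 counts. Srxn1 stood at 50.4 and 57.6 CPM untreated, at 68.3 and 81.9 CPM with poly(I:C), and at 46.6 and 69.8 CPM with AO. Txnrd1 and Gclc had the same form as Hmox1, with AO at 512 and 702 CPM and at 84.6 and 104 CPM, but did not pass. With a single library per cell of the design, an interaction of density and treatment could not be tested. In the 6 labelled libraries alone only Srxn1 passed, and with DESeq2 Osgin1 missed the threshold.

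**Figure D5:**
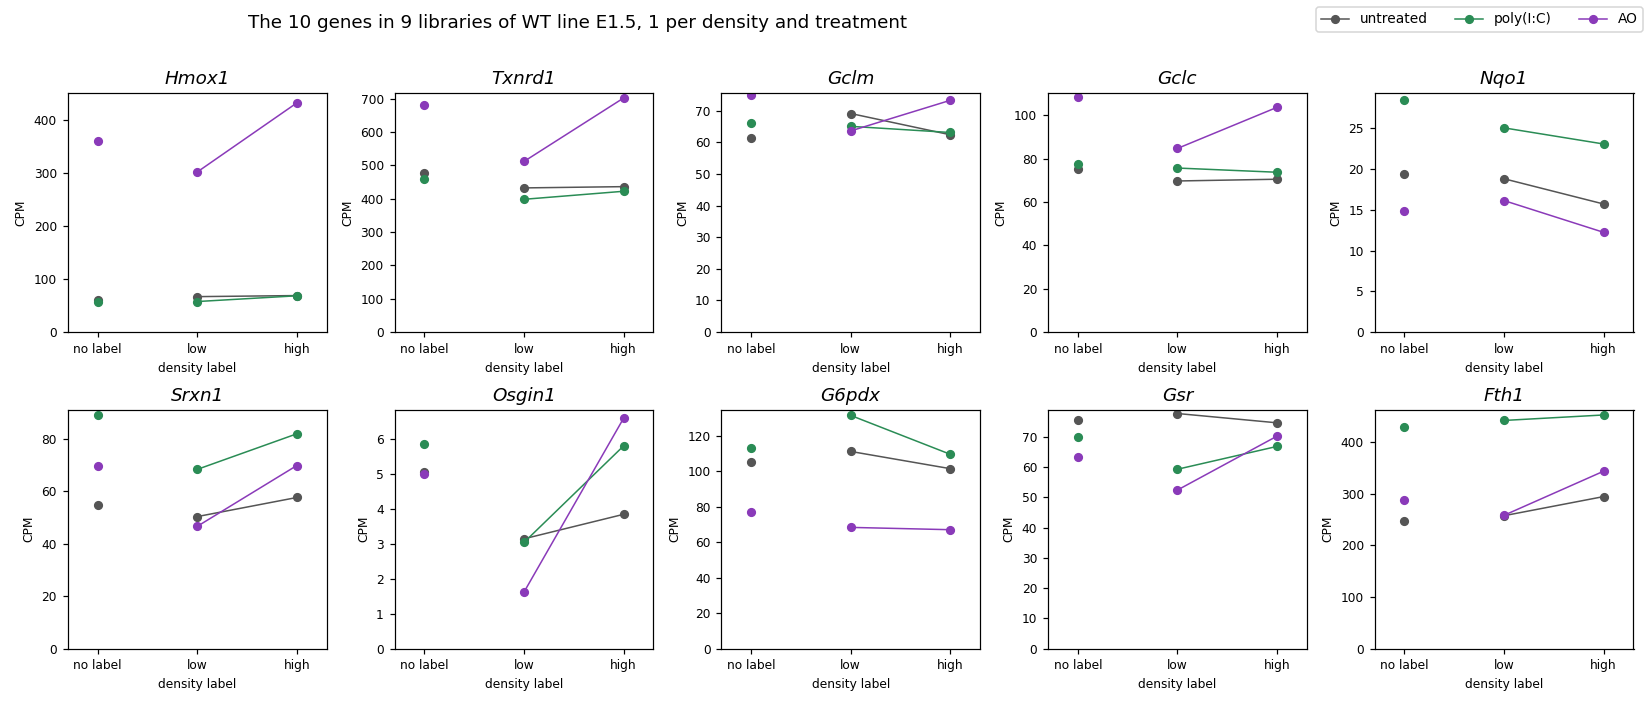
CPM (linear axis from 0) of the 10 genes in 9 libraries of WT line E1.5, 1 per treatment at low density, high density and without a density label, with lines joining low and high. Under AO Hmox1 goes from 302 CPM at low to 432 CPM at high density, while the untreated values lie at 66.7 and 68.7 CPM.

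Among the related genes, density moved Sqstm1 (0.37 ± 0.06), Nfe2l2 (0.34 ± 0.08) and Nfe2l1 (0.20 ± 0.05) up out of 11 regulators. Slc7a11 (0.37 ± 0.07) and Slc6a9 (0.43 ± 0.09) were among the 4 of 28 other linked targets that were higher at high density, and Txn1 (-0.31 ± 0.05) and Trim16 (-0.59 ± 0.11) were the 2 that were lower. Of 17 haem and iron genes, Cp (1.33 ± 0.23), Flvcr2 (1.14 ± 0.27) and Slc40a1 (1.02 ± 0.24), 2 of which serve iron export, were higher, and Tfrc, the transferrin receptor gene, was lower (-0.51 ± 0.06). Of 27 glutathione, thioredoxin and peroxide genes 3 were higher, led by Gpx3 (1.62 ± 0.28), and 4 lower, and none of the 13 pentose phosphate and NADPH genes passed. Since 16.8% of all genes passed for density, nothing is read from these counts about a list.

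Over all 9 libraries of this line, AO changed 6 members, against 39.5% of all genes. They were Hmox1 (2.49 ± 0.09), Txnrd1 (0.49 ± 0.07) and Gclc (0.47 ± 0.08), which rose, and G6pdx (-0.58 ± 0.08), Nqo1 (-0.33 ± 0.11) and Gsr (-0.28 ± 0.09), which fell. The calls of Nqo1 and Gsr were lost with DESeq2 and also in the 6 density-labelled libraries alone. Poly(I:C) changed 3, against 36.2% of all genes: Fth1 (0.73 ± 0.07), Srxn1 (0.55 ± 0.09) and Nqo1 (0.52 ± 0.10), all higher. Neither count is read as a result about the set. The 3 libraries without a density label are also part of the 30, so these values are not independent of those above. In this line Nqo1 stood at 15.7 to 19.4 CPM untreated, at 23.1 to 28.5 CPM with poly(I:C) and at 12.2 to 16.1 CPM with AO, groups that overlap only between untreated and AO.

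Genes with the pattern most like that of Hmox1 were found by the Pearson correlation of log2 CPM over the 30 libraries, among 10825 genes whose mean log2 CPM was 2 or more. Values are a description, since the libraries share lines and treatments and the AO libraries set most of the pattern. Among the 8 highest were Ndel1 (0.961), Atp6v1b2 (0.957), Tollip (0.952), Arl8b (0.949), Mafg (0.932), Tlk2 (0.928) and Lamtor3 (0.927). Atp6v1b2 encodes a subunit of the proton pump that acidifies lysosomes, and Arl8b and Lamtor3 encode proteins that sit on lysosomes. Atp6v1b2 went from a median of 91.0 CPM untreated and 88.4 CPM with poly(I:C) to 179 CPM with AO. The 4 most opposite were Ccna2, the S and G2 phase cyclin gene (-0.967), Trmt12 (-0.947), Midn (-0.938) and Rbm12 (-0.938). Of the other members Txnrd1 was nearest (0.89, place 69 of 10825), followed by Gclm (0.62) and Gclc (0.60), and G6pdx was the most opposed (-0.81). Srxn1, Nqo1, Osgin1, Fth1 and Gsr lay between -0.30 and 0.09.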

How the data were processed

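Per the labels' protocols, RNeasy Plus kits gave the RNA of the mouse embryonic fibroblasts, of which 500 ng per library went into TruSeq Stranded mRNA kits. The authors deposited expected counts, that is, estimated counts per gene that need not be whole, in 1 table per library; STAR, RSEM and mm10 are named without versions, per the submitters' processing notes. Reads that fit several genes are shared out by RSEM, and 5.99% to 13.3% of values in a library were not whole. Of 49585 genes, 49326 matched GENCODE vM21 (GRCm38).

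Expected counts were rounded and fitted in edgeR 4.0.16 under R 4.3.3 (TMM, filterByExpr with minimum count 10 and minimum total 15, quasi-likelihood F test, 1 coefficient per group, 30 libraries). The 9 libraries of WT line E1.5 had terms for treatment and density. The same line name occurs under each treatment, so libraries of a line are paired. Their deviations from group means correlated by 0.342 to 0.765 over 30 pairs, and the blocked fit tested 13628 genes. No replicates agreed within sampling noise (chi-square per degree of freedom 5.61 to 65.7). P-values of the fit without a block treat libraries of 1 line as independent.

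The members, lists and named genes were chosen with earlier results of these data known. Named by rule were all 10 members, the 4 genes of each list with the smallest p under AO, up to 4 that passed for density, and the 8 genes most like and 4 most unlike Hmox1; other list genes were named after their values were seen. A gene that this rule names is not reported here. The TGAGNNNGC form was added after the first motif search. Alternatives were RLE factors, no filter, DESeq2 1.42.0, the block, the compared groups alone, E1 or E2 as a covariate, the labelled density libraries alone and leaving out each line; robust dispersions and leaving out E1.4, E2.6 and E2.9 together were added after seeing the data. The scripts were tested on simulated counts.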

Additional observations from a re-analysis of the deposited data

Results flagged for a closer look

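Srxn1 in untreated het line E2.6 stood at 120 CPM, far above the other 3 untreated het lines at 58.6 to 68.8 CPM. Of 30 groups of 4 lines looked at for such a gap (10 genes under 3 treatments), this was the only one found. Among independent groups, chance alone gives such a gap in about 1 in 20. The 30 groups come from the same 4 lines and are not independent, so this rate cannot be applied to them and nothing is concluded about chance. Srxn1 was also highest in E2.6 with poly(I:C) (137 CPM) and with AO (143 CPM).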

How the results depend on the processing

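No called value of the 10 genes changed its sign under any alternative run. With the line as a replicate block, the members passing under AO were 7 in WT, 6 in het, 5 in hom and 8 in the mean over genotypes (3, 3, 3 and 5 without it), those under poly(I:C) 2, 3, 2 and 5 (0, 0, 0 and 3), and those in AO against poly(I:C) 9 (5). It changed no call in the differences of response. With the compared groups alone, 0 members passed under AO in hom and 2 under poly(I:C) in WT. Without lines E1.4, E2.6 and E2.9 together, 2 passed under poly(I:C) in WT and 2 in het. Leaving out 1 line at a time, the members passing ranged from 1 to 2 under AO in WT, from 2 to 4 under AO in hom, from 0 to 1 under poly(I:C) in hom and from 0 to 3 under poly(I:C) in the mean. For density, 5 passed with no filter on low counts and 1 in the 6 labelled libraries alone (3 otherwise). Of all genes, the count under AO ran from 189 (without E2.1) to 3024 (block) in WT around 1024, from 511 to 3676 in het around 1486, from 3 (groups alone) to 3907 in hom around 1749 and up to 6771 in the mean around 4503. Under poly(I:C) it ran from 8 (without E1.5) to 2335 in WT around 428, from 99 to 2354 in het around 624, from 0 to 1302 in hom around 171 and up to 5271 in the mean around 2895. For hom against WT it ran from 0 to 55 untreated around 2, from 0 to 118 under poly(I:C) around 34 and from 0 to 37 under AO around 0. For line E1.5 it fell to 3207 under AO and 2128 under poly(I:C) in the 6 libraries alone, from 4931 and 4518. Apart from fewer samples in the fits that leave some out, the cause was not tested. Depth limits Osgin1 most, with as few as 9 counts in a library.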
